A study of Mus musculus with 16 samples.

Results

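The effect of pressure overload on cardiomyocyte RNA was compared between mice given a PRODH virus and mice given a control virus. For each gene the difference of the 2 TAC effects, called the interaction, was estimated on the log2 scale as (PRODH TAC minus PRODH sham) minus (vector TAC minus vector sham). All 16 libraries of the series entered the estimate, and 14066 of the 57010 gene models in the count table passed a filter on low counts and were tested. A negative interaction means that the ratio of TAC to sham was smaller under PRODH than under the vector, and a positive one that it was larger, whichever way TAC moved the gene.

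RNA was sequenced from cardiomyocytes isolated from the hearts of wild-type C57BL/6 mice. The PRODH TAC group had received AAV9-PRODH and then transverse aortic constriction (TAC), an operation that tightens the aortic arch and puts the left ventricle under pressure load. The PRODH sham group had received AAV9-PRODH and a sham operation, the vector TAC group AAV9-Vector and TAC, and the vector sham group AAV9-Vector and a sham operation. Each group held 4 libraries, surgery followed the injection by 3 weeks, and hearts were taken 4 weeks after surgery. AAV9 is an adeno-associated virus used to deliver genes to the heart, and every group carried one, so no group was free of virus or of surgery. The series describes the delivery as specific to the heart, while the sources used here do not give the promoter, the PRODH sequence in the virus or the age of the mice. Whether each library stands for its own mouse is not stated in the labels, and the p-values therefore cover the spread from library to library, which may be technical.

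PRODH, proline dehydrogenase, is the mitochondrial enzyme that starts the oxidation of proline and passes the electrons to the respiratory chain. Under sustained pressure load the adult heart is known to return to parts of its fetal gene program, with natriuretic peptides and slow myosin switched on, to lay down collagen from activated fibroblasts, and to use less fatty acid. An interaction test asks whether the size of such responses depends on the virus, which a list of genes changed in one arm and not in the other does not show.

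Each library held 15987580 to 22680212 counts in total, and 6259310 to 10218569 outside the mitochondrial genome and nuclear copies of its sequence. The mitochondrial genome alone took 34.9% to 36.6% of the counts in PRODH TAC, 39.4% to 40.3% in PRODH sham, 34.5% to 35.9% in vector TAC and 37.9% to 40.9% in vector sham. Over all tested genes the first principal component held 48.7% of the variance and placed PRODH TAC libraries at -11.7 to -1.24, PRODH sham at 26.9 to 30.9, vector TAC at -61.1 to -49.5 and vector sham at 26.6 to 41.8. The labelled cell type was checked against 8 cardiomyocyte genes, all measured, whose normalised levels in CPM (counts scaled to library size) summed to 23350 to 26270 in PRODH TAC, 28610 to 33350 in PRODH sham, 23310 to 25000 in vector TAC and 29570 to 33460 in vector sham. Markers of fibroblasts, endothelium and myeloid cells were also measured in every group, with sums given beside the results they accompany. Vector TAC libraries 3 and 4 held the least of the mitochondrial gene mt-Nd4, at 20080 and 22060 CPM. Libraries 1 and 2 of the group held 25950 and 33660 CPM, and the other 14 libraries of the series had at least 25950 CPM. Summed over the protein genes of the mitochondrial genome, libraries 1 and 2 of vector TAC held 284500 and 297700 CPM. By the same sum libraries 3 and 4 held more, 310400 and 319700 CPM. Without both, 33 of 36 matrix, 15 of 23 hypertrophy and 14 of 15 fibroblast genes had a negative interaction and 17 of 28 contractile genes a positive one. Counts that moved by more than 1.5 times without both were negative ones in glycolysis (4) and the unfolded protein list (1) and positive ones in the respiratory chain (3), antioxidant (2) and unfolded protein (2) lists. Of 13 lymphoid markers Cd4 alone passed the filter, and the summed lymphoid level was at most 1.30 CPM in any library.

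Prodh itself (ENSMUSG00000003526) is given first; whether viral transcripts are counted under this mouse gene model is not known. It measured 13.4, 12.3, 14.7 and 14.2 CPM in PRODH TAC and 12.6, 14.3, 13.5 and 14.8 CPM in PRODH sham. Under the vector it measured 8.38, 6.19, 8.23 and 6.34 CPM after TAC and 10.9, 11.1, 10.4 and 11.5 CPM after sham. The PRODH groups overlapped each other, while every vector TAC library lay below every vector sham library. The interaction was 0.56 ± 0.14 (log2 ± SE, edgeR Benjamini-Hochberg adjusted p = 0.00373), with a TAC effect of -0.02 under PRODH and -0.58 under the vector.

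TAC effects differed between the viruses for 3764 of the 14066 tested genes, a share of 26.8% (edgeR quasi-likelihood test, adjusted p under 0.05). For 2224 of them (15.8% of all tested genes) the interaction was negative, and for 1540 (10.9%) it was positive. This balance was not stable. Positive calls made up 40.9% of all calls, 48.2% with upper quartile scaling of all libraries, and 48.6% to 50.7% when any 1 of the 8 sham libraries was left out. They outnumbered negative ones without PRODH sham library 1 (1950 against 1916), PRODH sham library 4 (1707 against 1660), vector sham library 2 (1999 against 1949) or vector sham library 4 (1662 against 1660). Of the genes called in the fit of all libraries, 792 (5.63%) lay at -1 or lower on the log2 scale, and 304 (2.16%) at 1 or higher. The median interaction over all tested genes was -0.04, and it ran from 0.0024 to 0.014 in the 8 fits that left out a sham library and was 0.00063 with upper quartile scaling. In the arms themselves TAC changed 4925 genes under PRODH (35.0%; 2425 higher, 17.2%, and 2500 lower, 17.8%) and 7949 genes under the vector (56.5%; 4263 higher, 30.3%, and 3686 lower, 26.2%). Between the sham groups PRODH and vector differed for 704 genes (5.0%; 395 higher, 2.81%, and 309 lower, 2.20%). The interaction uses the same libraries as these contrasts, so their values are given side by side as its parts and not as separate support.

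The arms share no library with each other, and their calls can be set side by side. Of the genes raised under PRODH, 1852 (76.4%) were also raised under the vector, where they made up 43.4% of the raised genes. Of the genes lowered under PRODH, 1666 (66.6%) were also lowered under the vector, 45.2% of the lowered genes there. Across the 14066 genes the TAC effects correlated with Pearson's r 0.582 and Spearman's rho 0.601, which describes genes measured in the same libraries and is not a test. Among 1763 genes raised at least 1 log2 unit under the vector (12.5% of tested genes), the median TAC effect was 0.51 under PRODH and 1.42 under the vector, and 886 of them (50.3%) were called higher under PRODH. Among 482 genes lowered that far under the vector (3.43%), the medians were -0.33 under PRODH and -1.31 under the vector, and 200 (41.5%) were called lower under PRODH. Choosing by large values in one arm favours that arm, so the choice was also made the other way. The 436 genes raised at least 1 log2 unit under PRODH (3.10%) had medians of 1.31 under PRODH and 1.22 under the vector, and 330 of them (75.7%) were called higher under the vector. The 99 genes lowered that far under PRODH (0.704%) had medians of -1.26 under PRODH and -0.78 under the vector. By size of the vector effect, 39 genes raised more than 4 log2 units there had a median of 1.56 under PRODH and 4.65 under the vector, and 54 genes at -2 or lower there had medians of -0.65 under PRODH and -2.29 under the vector.

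**Figure D1:**
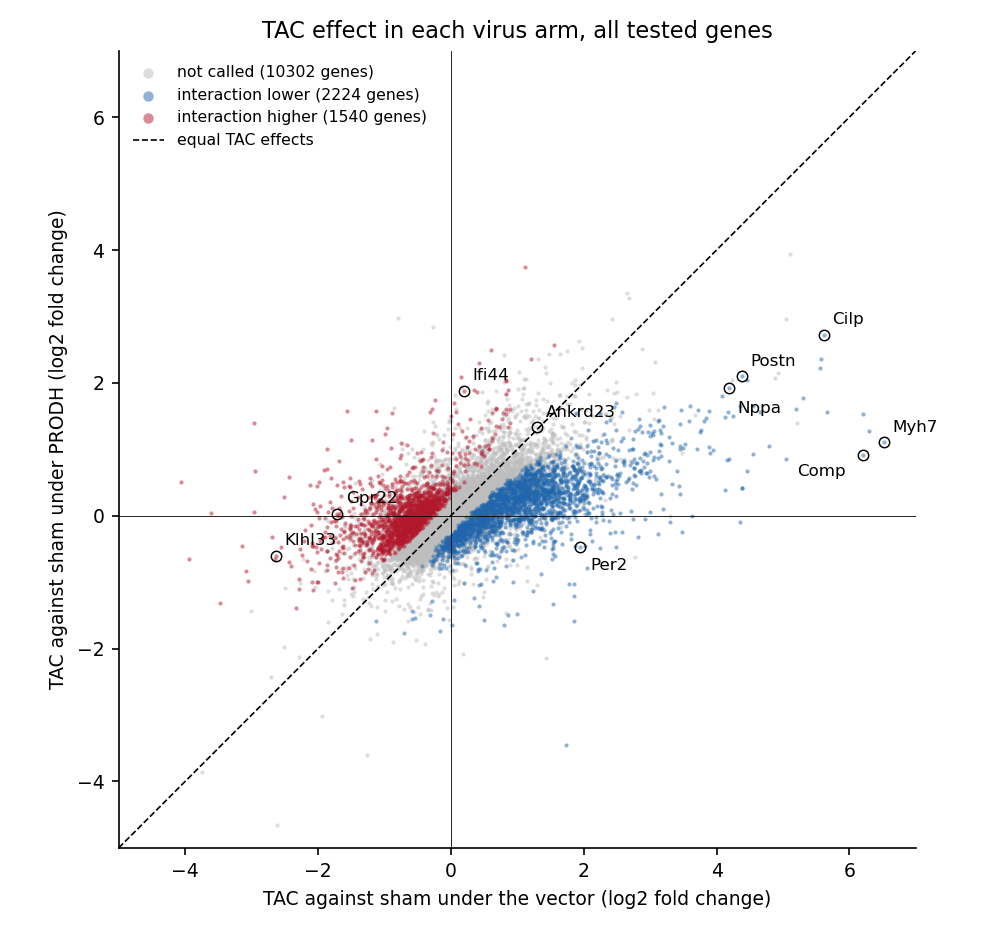
Each point is one of the 14066 tested genes, with its TAC effect under PRODH on the vertical axis and under the vector on the horizontal axis (log2 fold change of TAC against sham, 4 libraries a group; 5 genes lie outside the axes). Blue points have a negative and red points a positive called interaction; the cloud is flatter than the dashed line of equal effects, with Myh7 at 1.11 under PRODH and 6.52 under the vector.

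The hypertrophy and wall-stress list rose less under PRODH. Of 23 measured members, 17 had a negative interaction and none a positive one, with a median of -0.63. Here and in the lists below, such counts stand beside 15.8% negative and 10.9% positive calls over all tested genes. Counts of TAC calls stand beside 17.2% higher and 17.8% lower under PRODH, and 30.3% higher and 26.2% lower under the vector. Counts of sham calls stand beside 2.81% higher and 2.20% lower with PRODH over all tested genes. The median TAC effect was 0.79 under PRODH, where 18 rose and 1 fell, and 1.33 under the vector, where 22 rose. After sham, 1 member was higher and 8 were lower with PRODH than with the vector (median -0.23).

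Myh7, the slow myosin heavy chain that the mouse ventricle uses before birth, gave the most negative interaction among the genes named by size. Its level was 20.9, 21.8, 23.3 and 22.8 CPM in PRODH TAC and 10.9, 10.3, 10.4 and 9.52 CPM in PRODH sham. Under the vector it was 724, 596, 739 and 784 CPM after TAC and 6.48, 7.41, 8.75 and 8.25 CPM after sham. TAC raised it in both arms with no overlap of groups, 2.16-fold under PRODH and 91.6-fold under the vector (interaction -5.41 ± 0.14, adjusted p = 6.99e-23). Nppa, which encodes atrial natriuretic peptide, measured 460, 422, 429 and 476 CPM in PRODH TAC and 111, 108, 112 and 139 CPM in PRODH sham. Under the vector Nppa measured 2559, 2571, 3058 and 3120 CPM after TAC and 164, 159, 157 and 137 CPM after sham. Its interaction was -2.27 ± 0.12 (adjusted p = 3.62e-14), with every PRODH TAC library far below every vector TAC library and above all sham libraries. Counts were fractional for Myh7 in 16 libraries and for Nppa in 15, so some of their reads were shared with similar sequences and their levels are less certain than their order.

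The other landmarks of this response had smaller interactions. Ccn2, a matricellular gene of stretched cells, stood at -2.10 ± 0.10, Nppb, the B-type natriuretic peptide gene, at -0.70 ± 0.10 and Acta1, skeletal actin, at -0.81 ± 0.13. Ankrd1, a stretch-induced sarcomere protein, gave -0.34 ± 0.11 (adjusted p = 0.0247), a call lost when libraries were scaled by size alone (adjusted p = 0.072) or by the upper quartile (0.051) and in 9 of the 16 fits that left out 1 library. Its relative Ankrd23 rose alike in both arms and is described with the alike genes.

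Promoter windows are shown for Myh7, Nppb and Acta1, fetal-program genes of this list; a match of letters is a description and shows no binding. The muscle motif CATTCC, read on both strands in the 250 bases before and 50 after a start site, lay in 10 of 27 promoters of 20 listed genes (37.0%), against 1702 of 13409 promoters of all tested genes that matched by symbol (12.7%). Windows of 60 bases are from RefSeq promoters on GRCm38.p6, on the strand of the gene, with CATTCC or its complement GGAATG in capitals. Myh7 is at chr14:54994795-54994854 (minus strand), Nppb at chr4:147985768-147985827 (plus strand) and Acta1 at chr8:123894789-123894848 (minus strand).
Myh7: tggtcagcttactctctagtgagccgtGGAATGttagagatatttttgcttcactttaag
Nppb: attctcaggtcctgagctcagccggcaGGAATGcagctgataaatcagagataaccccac
Acta1: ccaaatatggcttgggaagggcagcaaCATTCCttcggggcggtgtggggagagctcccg
The match begins 201 bases before the start site in Myh7, 105 before it in Nppb and 46 before it in Acta1.

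**Figure D2:**
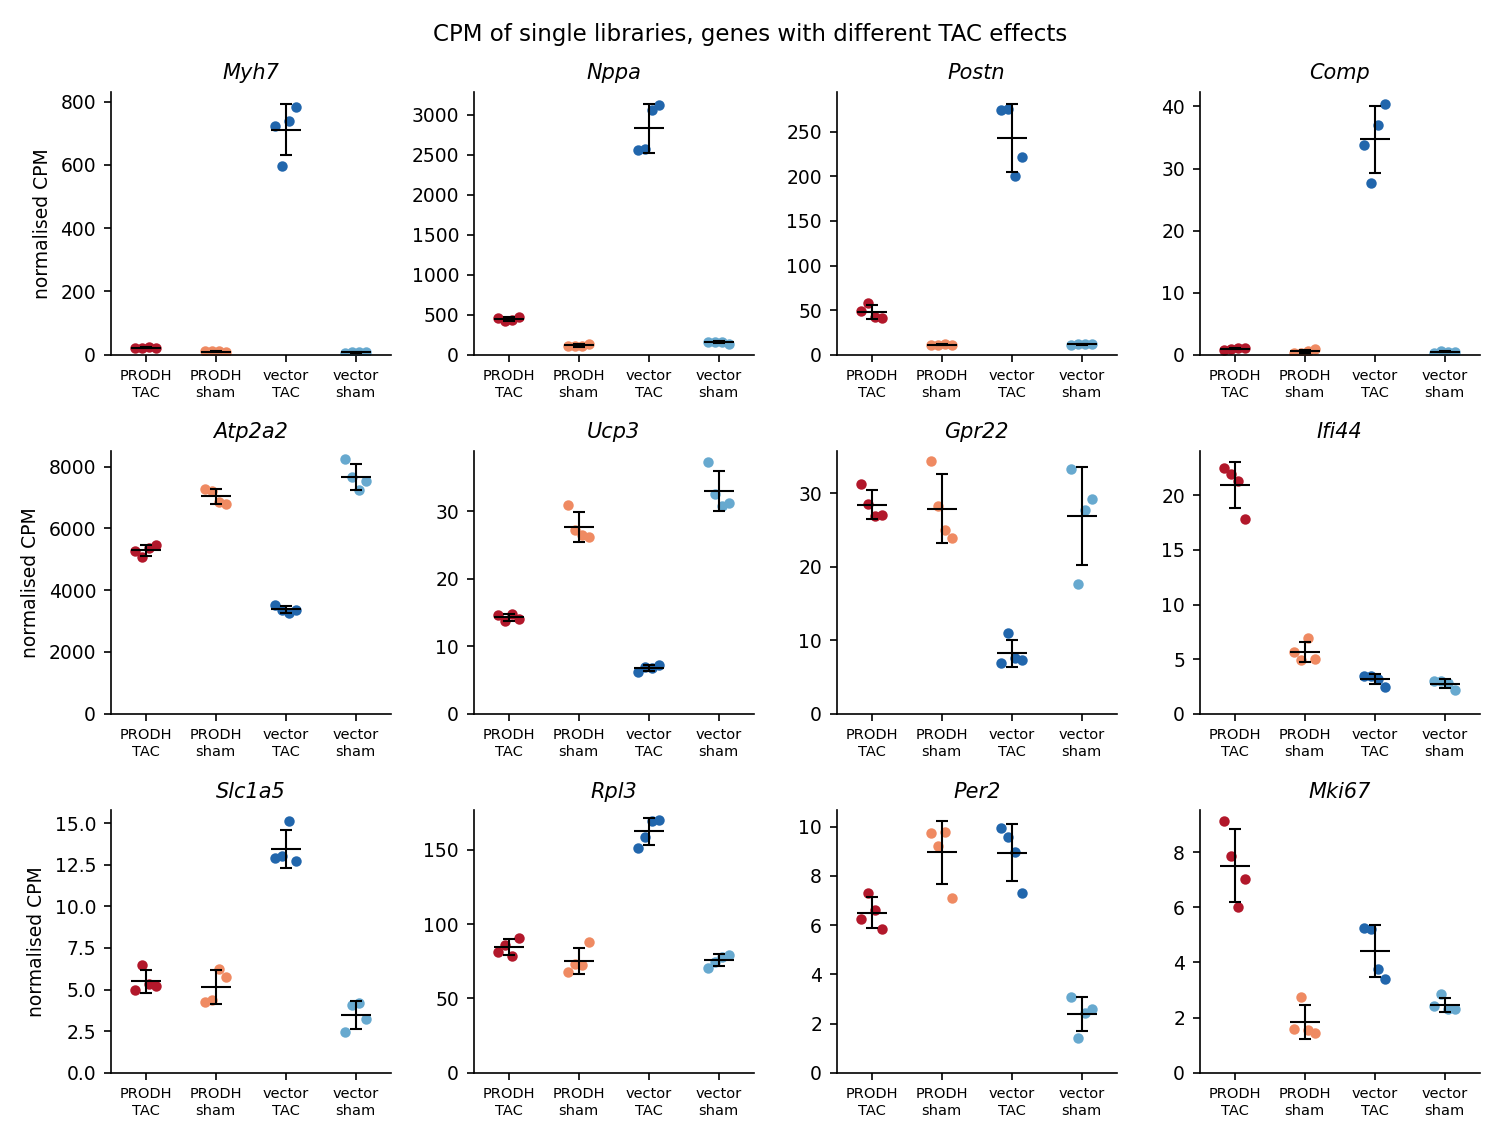
Normalised CPM of single libraries (points) with mean ± SD (bars, n = 4) for 12 genes, in the groups PRODH TAC, PRODH sham, vector TAC and vector sham from left to right. Myh7, Nppa, Postn and Comp stand high in vector TAC, Atp2a2, Ucp3 and Gpr22 stand low there, and Ifi44 and Mki67 are highest in PRODH TAC.

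Extracellular matrix genes showed the most negative list median. Of 36 measured members, 33 had a negative interaction and none a positive one, with a median of -1.80. TAC raised 35 of them under PRODH (median 1.39) and all 36 under the vector (median 3.08). After sham none was higher and 5 were lower with PRODH. With a standard symbol and 5 CPM or more required, the 10 most negative called interactions, whatever their list, were those of Myh7, Comp (-5.30 ± 0.42), Fmod (-3.77 ± 0.33), Thbs4 (-3.52 ± 0.23), Fibin (-3.32 ± 0.21), Ltbp2 (-3.22 ± 0.35), Ssc5d (-2.95 ± 0.27), Svep1 (-2.90 ± 0.25), Cilp (-2.90 ± 0.21) and Itgbl1 (-2.85 ± 0.25). The largest adjusted p among these 10 was that of Ltbp2, 5.46e-07. After sham, the fitted ratio of PRODH to vector was above 1 for Ssc5d (1.88), Fibin (1.71), Svep1 (1.44), Itgbl1 (1.38), Myh7 (1.33) and Comp (1.15). It was below 1 for Fmod (0.861), Thbs4 (0.801), Cilp (0.744) and Ltbp2 (0.647). Where that ratio was above 1, part of the interaction lies in the sham groups. The 5 CPM applied to the mean over all 16 libraries, which a gene can reach through 1 high group, as Comp did through vector TAC.

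Postn, periostin, a protein that activated fibroblasts secrete, measured 49.6, 58.3, 42.5 and 40.7 CPM in PRODH TAC and 10.6, 11.5, 11.9 and 10.6 CPM in PRODH sham. In the vector arm its level was 274, 276, 201 and 221 CPM after TAC and 10.96, 11.97, 12.07 and 11.59 CPM after sham. Sham levels overlapped between the viruses, and the TAC levels stood apart (interaction -2.28 ± 0.16, adjusted p = 2.42e-10). Col1a1, type I collagen, averaged 38.5 CPM in PRODH TAC, 15.8 in PRODH sham, 210 in vector TAC and 15.3 in vector sham, with an interaction of -2.48 ± 0.17. Comp, a pentameric cartilage matrix protein, averaged 1.01 ± 0.12 CPM in PRODH TAC, 0.538 ± 0.298 in PRODH sham, 34.7 ± 5.37 in vector TAC and 0.453 ± 0.0856 in vector sham (SD, n = 4). The exceptions in the list were the basement membrane collagens Col4a1 (-0.04) and Col4a2 (-0.20) and the matricellular gene Tnc (-0.87), none of them called. Fn1, fibronectin, gave -1.78 ± 0.19, the proteoglycan Bgn -2.09 ± 0.13 and Col1a2 -2.37 ± 0.15.

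In TGF-beta signalling, which drives fibroblast activation, 13 of 20 members had a negative interaction and none a positive one (median -0.85). Ligands, latent binding proteins and receptors were all among them: Tgfb2 at -1.66 ± 0.17, Bmp6 at -1.63 ± 0.14, Ltbp3 at -1.54 ± 0.15 and the receptors Tgfbr2 and Tgfbr1 at -1.08 and -0.62. The signal transducers Smad2, Smad3 and Smad4 were not called, at -0.27, 0.16 and -0.13. The median TAC effect of the list was 0.19 under PRODH, with 7 members higher, and 1.06 under the vector, with 15 higher.

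Markers of other cell types moved with these genes. All 15 measured fibroblast markers had a negative interaction (median -1.41), and their summed level ran from 334.5 to 422 CPM in PRODH TAC, 299 to 329 in PRODH sham, 941 to 1099 in vector TAC and 196 to 323 in vector sham. Under the vector all 15 rose with TAC (median 2.00), and under PRODH 10 rose (median 0.76). Mfap5, which marks adventitial fibroblasts, gave -2.64 ± 0.18, Pi16 -2.15 ± 0.16 and Mmp2, a matrix-degrading enzyme, -2.16 ± 0.17. In such bulk libraries fewer cells of a type and less RNA per cell cannot be told apart, and the part of fibroblast content in the matrix result was not tested. Endothelial markers went the same way in 13 of 19 cases and the opposite way in 1 (median -0.53), with sums of 960 to 1102 CPM in PRODH TAC, 750 to 819 in PRODH sham, 1300 to 1490 in vector TAC and 671 to 839 in vector sham. Plvap, a fenestral diaphragm protein, gave -1.67 ± 0.22, Sox17 -1.35 ± 0.18 and the VEGF receptor Flt1 -0.98 ± 0.15. Of 21 myeloid markers 16 had a negative interaction and none a positive one (median -0.94), with sums of 264 to 325 CPM in PRODH TAC, 251 to 294 in PRODH sham, 467 to 502 in vector TAC and 171 to 257 in vector sham. After sham 6 of these markers were higher and 3 lower with PRODH (median 0.30), beside 2.81% and 2.20% of all tested genes. The complement gene C1qb gave -1.16 ± 0.14, Laptm5 -1.40 ± 0.16 and lysozyme, Lyz2, -1.12 ± 0.14.

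Lists with fewer calls in the same direction were those of inflammation and of further cell types. The shares over all tested genes were 15.8% negative and 10.9% positive. Of 21 inflammatory mediators 10 had a negative interaction and none a positive one (median -0.54), among them the alarmin Il33 (-2.15 ± 0.35), the chemokine Cxcl16 (-1.27 ± 0.17) and the adhesion molecule Vcam1 (-1.02 ± 0.15). Pericyte and smooth muscle markers split into 3 negative and 3 positive among 14, with the pericyte receptor Pdgfrb at -0.84 ± 0.14, the intermediate filament gene Des at -0.68 ± 0.12 and smooth muscle actin, Acta2, at 0.69 ± 0.11. Of 6 red cell and platelet genes Pf4 alone was called for the interaction (-0.77). After sham 5 of them were lower with PRODH (median -0.94), beside 2.20% lower over all tested genes. Their summed level ran from 68.65 to 94.91 CPM in PRODH sham and from 111.8 to 188.7 CPM in vector sham. Of 7 glial and mesothelial markers 2 were called for the interaction, Msln (-1.39) and Lrrn4 (-1.12).

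**Figure D3:**
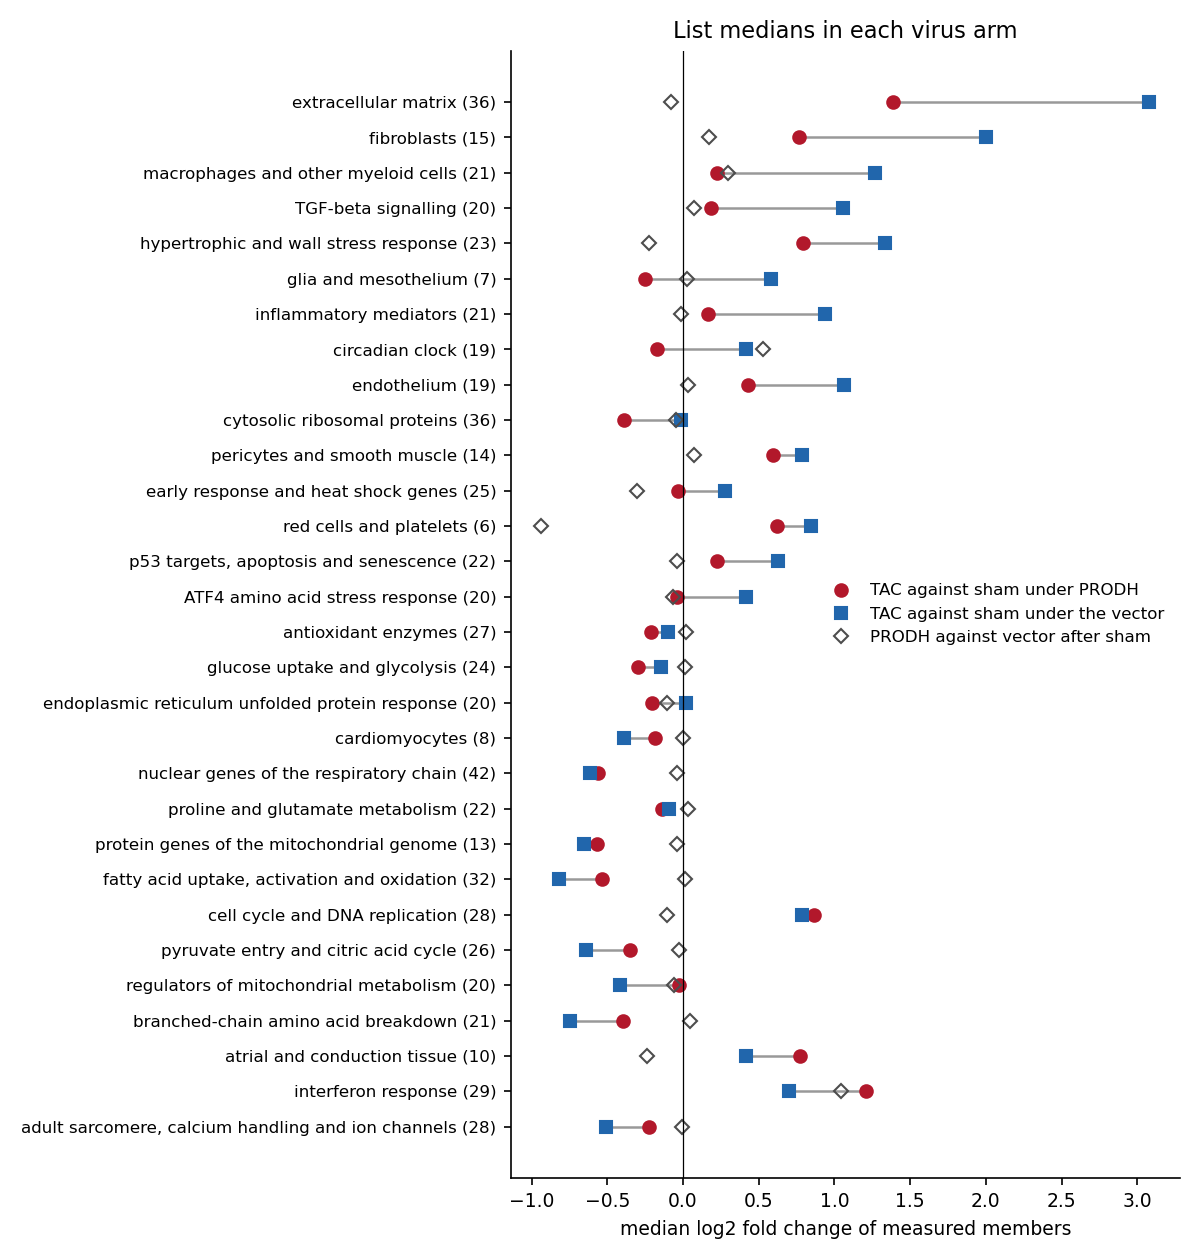
Median log2 fold change of the measured members of 30 gene lists (number of members in brackets) for TAC against sham under PRODH (circles), TAC against sham under the vector (squares) and PRODH against vector after sham (diamonds), ordered by the median interaction. The distance between circle and square is widest for the extracellular matrix (1.39 under PRODH, 3.08 under the vector), and the sham difference of the interferon list (1.04) lies between its TAC effects (1.21 under PRODH, 0.70 under the vector).

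Sarcomere genes of the adult heart, with those of calcium handling and of ion channels, went the other way. Of 28 members 17 had a positive interaction and 1 a negative one (median 0.48). TAC lowered 14 under PRODH (median -0.22) and 24 under the vector (median -0.51), so most positive values stand for falls that were smaller under PRODH; the 2 members that rose under PRODH were Ttn (0.26) and Casq2 (0.20). Sham levels differed for 3 members, 2 higher and 1 lower with PRODH. Atp2a2, the calcium pump that refills the sarcoplasmic reticulum, measured 5269, 5069, 5375 and 5475 CPM in PRODH TAC and 7279, 7227, 6861 and 6781 CPM in PRODH sham. Vector libraries had 3528, 3351, 3271 and 3361 CPM after TAC and 8258, 7653, 7233 and 7522 CPM after sham. All 4 PRODH TAC libraries lay between the vector TAC and the sham libraries (interaction 0.77 ± 0.10, adjusted p = 5.46e-07).

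The potassium channel genes gave the largest values of this list: Kcnv2 1.65 ± 0.22, Kcnd2, which carries the fast transient outward current, 1.37 ± 0.15 and Kcnj3 1.24 ± 0.14. The ryanodine receptor Ryr2, the calcium release channel, gave 0.68 ± 0.10, the giant spring protein Ttn 0.64 ± 0.12 and the fast myosin Myh6 0.48 ± 0.11. Ryr2 averaged 567 CPM in PRODH TAC, 567 in PRODH sham, 386 in vector TAC and 617 in vector sham, and its TAC effect was 0.00 under PRODH and -0.68 under the vector. Among thin filament and light chain genes, Tnni3, Tnnt2, Tnnc1, Tpm1, Actc1 and Myl3 ran from -0.19 to -0.00 and were not called. Myl2, the ventricular light chain, was negative at -0.36, a call lost in 11 of the 16 fits that left out 1 library. Cardiomyocyte markers taken as a whole therefore had no common sign, with 3 of 8 positive, 1 negative and a median of -0.05. That median turned positive in 6 of the 8 fits that left out a sham library, reaching 0.06.

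Among the 10 most positive called interactions by the same requirements, 8 were genes lowered by TAC under the vector. Gpr22, an orphan receptor of heart and brain, measured 31.3, 28.6, 27.0 and 27.1 CPM in PRODH TAC and 34.4, 28.3, 25.04 and 23.97 CPM in PRODH sham. Under the vector it measured 6.98, 10.97, 7.601 and 7.32 CPM after TAC and 33.3, 17.6, 27.7 and 29.2 CPM after sham. The PRODH groups overlapped and the vector groups did not (interaction 1.74 ± 0.26, adjusted p = 0.000149). Klhl33 gave 2.03 ± 0.16, Itgb6, an integrin subunit, 1.95 ± 0.15, Phkg1, the catalytic subunit of muscle phosphorylase kinase, 1.82 ± 0.14 and the long noncoding RNA Chaer1, known from mouse work as a regulator of hypertrophy, 1.77 ± 0.18. Lrrc15 and Cenpf both gave 1.62, with SE 0.19 and 0.24. Phkg1 had fractional counts in 15 libraries.

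Genes of mitochondrial fuel use are given by step. Fatty acid uptake and oxidation held 12 positive and 2 negative interactions among 32 members (median 0.22), with TAC effects of -0.53 under PRODH, where 28 fell, and -0.82 under the vector, where 30 fell. Ucp3, a mitochondrial uncoupling protein that follows fatty acid supply, measured 14.6, 13.8, 14.8 and 13.97 CPM in PRODH TAC and 30.99, 27.2, 26.4 and 26.2 CPM in PRODH sham. In the vector arm its level was 6.13, 6.97, 6.71 and 7.21 CPM after TAC and 37.4, 32.6, 30.8 and 31.2 CPM after sham. TAC lowered it in both arms without overlap, to a lesser degree under PRODH (1.33 ± 0.12, adjusted p = 1.38e-09). Pdk4, the kinase that closes pyruvate entry, gave 0.74 ± 0.11, Acsl1, which activates fatty acids, 0.59 ± 0.10 and the thiolase Acaa2 0.32 ± 0.10. After sham, Pdk4 with PRODH was 0.705 times its level with the vector, so part of its interaction lies in the sham groups. Cpt1b, the entry step of fatty acids into mitochondria, was not called (0.15 ± 0.10, adjusted p = 0.26). Ucp2, another uncoupling protein, was negative (-0.77).

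In pyruvate entry and the citric acid cycle 15 of 26 members had a positive interaction and 1 a negative one (median 0.31; TAC -0.35 under PRODH and -0.64 under the vector). The pyruvate dehydrogenase components Pdhx and Pdhb gave 0.58 ± 0.10 and 0.42 ± 0.09 and the succinate dehydrogenase subunit Sdha 0.53 ± 0.11. Idh2, the NADP-linked isocitrate dehydrogenase, was the negative one at -0.43. Among genes that break down branched-chain amino acids 13 of 21 were positive and none negative (median 0.37; TAC -0.39 under PRODH and -0.75 under the vector), led by Ppm1k, the phosphatase that switches the pathway on (0.88 ± 0.16), Dbt (0.61 ± 0.13) and Aldh6a1 (0.51 ± 0.10). Of 42 nuclear genes of the respiratory chain 6 were positive and none negative, with a median of 0.01, beside 10.9% positive and 15.8% negative over all tested genes. TAC lowered 40 of the 42 under PRODH (median -0.56) and all 42 under the vector (median -0.61), beside 17.8% and 26.2% of all tested genes. The 6 calls were 3 without vector TAC library 3 or 4, 11 without vector TAC library 2 and 12 without PRODH sham library 4. Ndufs1, a subunit of complex I with iron-sulfur clusters, was the largest exception at 0.71 ± 0.14, followed by cytochrome c, Cycs (0.50 ± 0.11), and Ndufs4 (0.46 ± 0.10). Among the 13 protein genes of the mitochondrial genome mt-Nd4l alone was called (0.68), with 3 called without PRODH sham library 4 or vector sham library 2 and 2 without vector TAC library 2, and the medians were -0.57 under PRODH and -0.65 under the vector.

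Regulators of mitochondrial and lipid metabolism held 10 positive and 1 negative interaction among 20 (median 0.32). Lpin1, a lipid phosphatase and coactivator, measured 57.8, 57.6, 58.8 and 65.6 CPM in PRODH TAC and 67.8, 64.7, 58.5 and 62.0 CPM in PRODH sham. Vector libraries had 45.0, 35.3, 45.0 and 43.5 CPM after TAC and 90.2, 90.3, 82.3 and 78.9 CPM after sham. The PRODH groups overlapped, while the vector groups lay on either side of them (0.94 ± 0.11, adjusted p = 1.75e-07); part of that interaction lies in the sham groups, where Lpin1 was lower with PRODH (-0.43). Mlxipl, a carbohydrate-sensing factor, gave 1.17 ± 0.16, the oestrogen-related receptor Esrrg 0.86 ± 0.15 and Ppargc1a, the coactivator of mitochondrial biogenesis, 0.60 ± 0.16. In glucose uptake and glycolysis 7 of 24 were negative and 4 positive (median -0.14): the stress-induced enzyme Pfkfb3 gave -0.99 ± 0.17 and hexokinase Hk2 0.51 ± 0.09.

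Proline and glutamate metabolism, the pathway of the delivered enzyme, had no common direction. Of 22 measured members 4 were positive, 3 negative and 15 not called, beside 10.9% positive and 15.8% negative over all tested genes. The median of the list was 0.02, and it turned to -0.01 without vector TAC library 3. After sham 2 members were higher and 1 was lower with PRODH. Slc1a5, which imports glutamine, measured 4.95, 6.49, 5.32 and 5.20 CPM in PRODH TAC and 4.26, 4.36, 6.25 and 5.78 CPM in PRODH sham. Under the vector it measured 12.9, 13, 15.2 and 12.7 CPM after TAC and 2.42, 4.06, 4.17 and 3.23 CPM after sham. The effect of TAC was called under the vector (1.94) and not under PRODH (0.09), and after sham the gene was higher with PRODH (0.56; interaction -1.85 ± 0.20, adjusted p = 4.56e-08). Glul, glutamine synthetase, gave -0.50 ± 0.09, with means of 269 CPM in PRODH TAC, 280 in PRODH sham, 317 in vector TAC and 234 in vector sham. Slc25a22, a mitochondrial glutamate carrier, gave 1.02 ± 0.12, Aldh4a1, which completes the conversion of proline to glutamate, 0.40 ± 0.11 (adjusted p = 0.00604), and Pycr1, the last step of proline synthesis, -0.21 ± 0.47 (adjusted p = 0.783).

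Stress programs were mixed as well, and some of their counts lay near the shares over all tested genes, 15.8% negative and 10.9% positive. In the ATF4 response to amino acid shortage 5 of 20 were negative and 4 positive (median -0.18). Nupr1, a stress-induced nuclear protein, averaged 0.779 CPM in PRODH TAC, 0.811 in PRODH sham, 6.05 in vector TAC and 0.795 in vector sham (interaction -2.97 ± 0.34), and Eif4ebp1, a translation inhibitor, gave -1.16 ± 0.13, whereas the folate enzyme Aldh1l2 gave 1.38 ± 0.25. The unfolded protein list held 3 negative and 4 positive among 20, where 1 was negative without PRODH sham library 4 or vector sham library 1 and 2 were positive without PRODH TAC library 3. It included the chaperone Hspa5 at 0.42 ± 0.09 and Pdia3 at -0.43 ± 0.09. After sham, Hspa5 with PRODH was 0.768 times its level with the vector, so part of its interaction lies in the sham groups. In the whole list 1 member was higher and 4 were lower with PRODH after sham, beside 2.81% and 2.20% of all tested genes. Xbp1 (-0.42 ± 0.12, adjusted p = 0.00968) lost its call in 2 of the fits that left out 1 library. Antioxidant enzymes held 7 negative and 4 positive among 27. The negative ones included heme oxygenase Hmox1 (-1.42 ± 0.20), the secreted peroxidase Gpx3 (-1.07 ± 0.11) and Gpx1 (-0.81 ± 0.14), and the positive ones the mitochondrial enzymes Sod2 (0.31) and Prdx3 (0.35). Among 22 genes of p53, apoptosis and senescence 7 were negative and 5 positive, with Serpine2 at -1.44 ± 0.17, Igfbp7 at -1.28 ± 0.15 and the survival gene Bcl2l1 at -0.74 ± 0.13. Of 25 immediate early and heat shock genes, which cell isolation is known to induce, 11 were negative and 3 positive. After sham 11 of them were lower and 3 higher with PRODH, beside 2.20% lower and 2.81% higher over all tested genes. Hspa1b and Hspa1a, which are nearly identical in sequence and carry fractional counts in 16 libraries, gave -1.28 and -1.05.

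**Figure D4:**
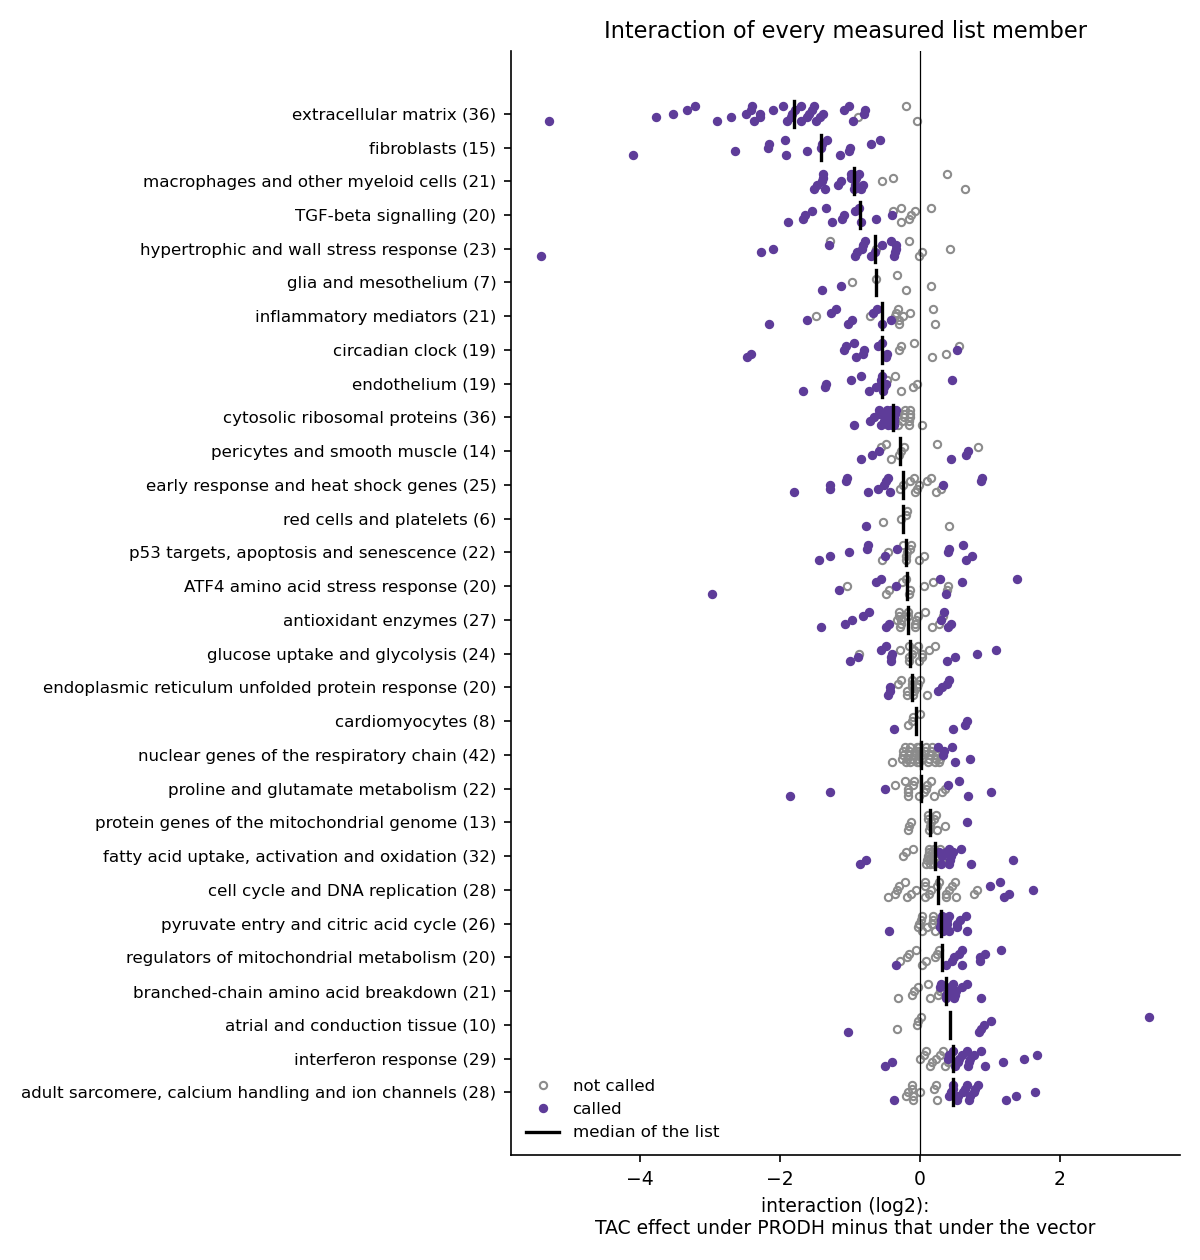
Interaction of every measured member of 30 gene lists on the log2 scale (filled points called, open points not called) with the list median (bar), ordered as by median from the extracellular matrix (-1.80) at the top to the adult sarcomere, calcium and channel list (0.48) at the bottom. Matrix and fibroblast members lie to the left of 0 without exception, and respiratory chain members gather at 0.

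Interferon-response genes carried a PRODH difference in both surgeries. Of 29 members 28 were higher with PRODH than with the vector after sham (median 1.04), beside 2.81% of all tested genes. TAC raised 28 under PRODH (median 1.21) and 26 under the vector (median 0.70), beside 17.2% and 30.3% of all tested genes. The interaction was positive for 17 and negative for 2 (median 0.47). Ifi44 was among the 10 most positive called interactions. It measured 22.5, 22.0, 21.3 and 17.8 CPM in PRODH TAC and 5.66, 4.92, 6.93 and 5.06 CPM in PRODH sham. In the vector arm its level was 3.49, 3.48, 3.15 and 2.49 CPM after TAC and 2.99, 3.04, 2.84 and 2.17 CPM after sham. The vector groups overlapped, and every PRODH library lay above every vector library (interaction 1.68 ± 0.20, adjusted p = 2.35e-07). Ifit1, an RNA-binding antiviral effector, averaged 55.8 CPM in PRODH TAC, 13.7 in PRODH sham, 5.53 in vector TAC and 3.13 in vector sham (1.19 ± 0.18), and Irf7, the factor that amplifies the response, 72.4 CPM in PRODH TAC, 31.4 in PRODH sham, 14.8 in vector TAC and 11.7 in vector sham (0.88 ± 0.12). The RNA helicase relative Ddx60 gave 1.65 ± 0.24 and the feedback protease Usp18 0.72 ± 0.18. Ifit3 was not called (0.23 ± 0.13, adjusted p = 0.21). Its means were 53.5 CPM in PRODH TAC, 18.9 in PRODH sham, 13.2 in vector TAC and 5.495 in vector sham, and its fold change with TAC was 2.83 under PRODH and 2.41 under the vector. On the additive scale, where CPM differences are compared, the Ifit3 interaction was 26.9 CPM (limma adjusted p = 3.78e-07), and 25 of the 29 list members were positive and 1 negative. Ifit3 and its near copy Ifit3b share reads, with fractional counts in 16 libraries, and the Ifit3b call (0.69 ± 0.23) was lost with limma-voom and in 4 fits that left out 1 library.

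Promoters of the interferon list are shown as a description, and a match of letters shows no binding. Its genes were listed for their response to interferon, so their share with the element below says nothing about the interaction. The element GAAANNGAA, searched on both strands, lay in 12 of 23 promoters of 19 listed genes (52.2%), against 970 of 13409 promoters of all tested genes (7.2%). The windows are from RefSeq on GRCm38.p6 on the strand of the gene, with matches, or their complement TTCNNTTTC, in capitals, and overlapping matches run together. Ifit1 is at chr19:34640755-34640814 (plus strand), Isg15 at chr4:156200862-156200921 (minus strand) and Ifi44 at chr3:151749879-151749938 (minus strand).
Ifit1: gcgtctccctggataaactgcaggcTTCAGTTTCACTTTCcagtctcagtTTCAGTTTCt
Isg15: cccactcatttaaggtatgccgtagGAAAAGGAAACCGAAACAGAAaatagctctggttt
Ifi44: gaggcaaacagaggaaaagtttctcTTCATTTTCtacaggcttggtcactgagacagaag
Ifit1 and Isg15 hold 3 matches each and Ifi44 holds 1.

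Circadian clock genes had mostly negative interactions with a difference between the sham groups as well. Of 19 members 12 were negative and 1 positive (median -0.54). After sham 13 were higher and 4 lower with PRODH (median 0.53), beside 2.81% higher and 2.20% lower over all tested genes. TAC raised 5 and lowered 9 under PRODH (median -0.17), and raised 14 and lowered 3 under the vector (median 0.42). Per2, a repressor of the clock loop, measured 6.23, 7.31, 6.62 and 5.83 CPM in PRODH TAC and 9.75, 9.22, 9.80 and 7.09 CPM in PRODH sham. Vector libraries had 9.95, 9.57, 8.96 and 7.32 CPM after TAC and 3.06, 1.42, 2.42 and 2.59 CPM after sham. The vector sham libraries stood lowest and apart from the other 12 (interaction -2.41 ± 0.22, adjusted p = 7.2e-10). Dbp, a clock output factor, averaged 14.9 CPM in PRODH TAC, 50.7 in PRODH sham, 11.8 in vector TAC and 19.3 in vector sham (-1.05 ± 0.12), and Bhlhe40, another repressor, gave -0.94 ± 0.11. Per3, higher in sham with PRODH by 1.61, gave -0.91 ± 0.19. Transcripts of the clock cycle over the day, and the labels give no hour of collection, so its part in these differences was not tested. The E-box CACGTG, which clock factors bind, lay in 6 of 21 promoters of 16 listed genes (28.6%), against 1301 of 13409 (9.7%). That share describes a list of known clock genes and says nothing about their interactions. The E-box is shown for Ciart and Cry1, whose interactions were -2.47 and -1.08, in windows at chr3:95882312-95882371 and chr10:85185082-85185141 of GRCm38.p6 (RefSeq, minus strand for both, E-box in capitals).
Ciart: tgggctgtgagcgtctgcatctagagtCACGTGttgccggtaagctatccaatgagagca
Cry1: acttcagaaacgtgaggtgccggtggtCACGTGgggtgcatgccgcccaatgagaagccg

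Cytosolic ribosomal protein genes formed a narrow group. Of 36 members 23 had a negative interaction and none a positive one (median -0.38). TAC lowered 31 of them under PRODH (median -0.39), whereas under the vector 2 rose and 2 fell (median -0.01), and no member differed after sham. Rpl14 averaged 73.6 CPM in PRODH TAC, 108 in PRODH sham, 112 in vector TAC and 110 in vector sham (-0.58 ± 0.13). Rpl3, raised by TAC under the vector by 1.10, measured 81.6, 86.2, 78.7 and 90.9 CPM in PRODH TAC and 67.7, 73.0, 72.4 and 88.0 CPM in PRODH sham, against 152, 159, 169 and 170 CPM in vector TAC and 70.7, 74.7, 78.1 and 79.4 CPM in vector sham. The 23 calls fell to between 12 and 15 without vector sham library 1 or 4 or PRODH sham library 3 or 4, and to 12 on the additive scale. Rpl14 had fractional counts in 16 libraries, and ribosomal protein genes are known for many pseudogene copies.

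Cell cycle genes held 5 positive and no negative interaction among 28 (median 0.26), beside 10.9% positive and 15.8% negative over all tested genes. TAC raised 20 in each arm, where it raised 17.2% of all tested genes under PRODH and 30.3% under the vector. Mki67, a proliferation marker, measured 9.13, 7.85, 6.01 and 7.01 CPM in PRODH TAC and 1.58, 2.74, 1.55 and 1.45 CPM in PRODH sham, against 5.23, 5.20, 3.77 and 3.42 CPM in vector TAC and 2.42, 2.84, 2.29 and 2.33 CPM in vector sham. It rose in both arms, further under PRODH (1.2 ± 0.27, adjusted p = 0.00118). Cenpf and Ccne2 (1.27 ± 0.25) were positive by other routes: Cenpf fell in both arms and less under PRODH, and Ccne2 rose under PRODH and fell under the vector. Atrial and conduction genes were positive in 5 and negative in 1 of 10, with the atrial light chains Myl4 at 0.88 ± 0.12 and Myl7 at 0.92 ± 0.14 and the venous and atrial factor Nr2f2 at -1.02 ± 0.18. Bmp10, an atrial growth factor, had the largest value (3.28), with at most 0.488 CPM in PRODH TAC, PRODH sham and vector TAC libraries and 4.39 to 5.55 CPM in vector sham.

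A small set of genes moved in opposite directions. TAC effects were called in both arms with opposite signs for 136 genes (0.967% of those tested), 63 higher under PRODH and lower under the vector and 73 lower under PRODH and higher under the vector. Among those higher under PRODH with at least 5 CPM and a standard symbol (none of the form Gm with a number, which leaves out the opposed gene model Gm10435), Bche, butyrylcholinesterase, measured 31.7, 30.0, 27.5 and 24.4 CPM in PRODH TAC and 24.9, 20.3, 18.6 and 17.0 CPM in PRODH sham. Under the vector it measured 12.97, 14.4, 11.8 and 11.6 CPM after TAC and 22.4, 15.7, 22.1 and 22.0 CPM after sham. The PRODH groups overlapped by 1 library each and the vector groups did not (interaction 1.18 ± 0.17), and Pirt (1.39), Zfp518a (1.13), Rnpc3 (0.87) and Auts2 (1.15) were the others by size. Those lower under PRODH and higher under the vector were Phlda1 (-1.71), Tspan4 (-1.41), Ier3 (-1.29), Slc2a1 (-0.88) and Per2. Slc2a1, the glucose transporter GLUT1 of the fetal heart, measured 4.34, 4.92, 5.44 and 6.69 CPM in PRODH TAC and 7.30, 7.48, 6.07 and 7.75 CPM in PRODH sham. Under the vector Slc2a1 measured 8.72, 9.15, 8.91 and 8.402 CPM after TAC and 7.19, 5.94, 6.46 and 6.03 CPM after sham. Its vector groups did not overlap and its PRODH groups did. Phlda1, Tspan4, Ier3 and Per2 were also higher with PRODH after sham, by 0.65, 0.80, 0.74 and 1.95, and Pirt and Auts2 lower (-0.56 in each), so part of the opposition lies in the sham groups. The count of 136 was 223 when scaled by library size alone, and ran from 87 without PRODH sham library 4 to 207 without PRODH sham library 1.

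Alike genes were looked for in the same way. In 39 genes (0.277%) TAC effects were called in 1 direction in both arms, were at least 1.5-fold, and had a 95% interval of the interaction within 0.32 log2 units of 0, 17 of them higher and 22 lower. Tnni3, the cardiac inhibitory troponin, measured 1819, 1715, 1951 and 2059 CPM in PRODH TAC and 2710, 3132, 3292 and 3816 CPM in PRODH sham. In the vector arm its level was 1738, 1785, 1985 and 2064 CPM after TAC and 3169, 3498, 3192 and 3124 CPM after sham. Levels overlapped between the viruses in both surgeries, with TAC effects of -0.78 in each arm. Ankrd23 rose by 1.33 under PRODH and 1.30 under the vector (interaction 0.03, 95% interval -0.19 to 0.25), and its sham level was lower with PRODH (-0.57). On the additive scale the same gene had an interaction of -103.9 CPM (limma adjusted p = 0.00232), with means of 399 CPM in PRODH TAC, 158.5 in PRODH sham, 579 in vector TAC and 235 in vector sham. Mcam, Adam19, Col4a1 and Ckap4 were the other alike genes that rose, and Slc25a33, Efnb3, Eci1 and Hopx the others that fell. Of these, Adam19 and Ckap4 were called on the additive scale, at -2.98 and -6.75 CPM. After sham the ratio of PRODH to vector was 0.833 for Mcam, 0.734 for Adam19, 0.701 for Col4a1 and 0.513 for Ckap4. It was 1.11 for Slc25a33, 1.24 for Efnb3, 1.04 for Eci1 and 1.26 for Hopx. Without vector TAC libraries 3 and 4 the interaction moved to 0.18 for Col4a1 and 0.16 for Ckap4, neither called.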

How the data were processed

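Counts per gene were deposited for 16 RNA-seq libraries in 4 groups of 4, mapped by name to the labels. TRIzol extraction, DNase I treatment and a SMARTER mRNA-Seq kit are recorded per the labels' protocols. The values are estimated counts per gene, not normalised, as the authors deposited them; 9538 of 57010 gene models (16.73%) have a fractional count, so reads were shared between similar sequences. The sources used here do not name the aligner, counting tool, annotation or genome build.

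Counts were rounded and fitted with edgeR 4.0.16 in R 4.3.3 (filterByExpr with minimum count 10 and minimum total 15, TMM scaling, robust quasi-likelihood fit, 4 group means, no block). The interaction contrast was tested over 14066 genes and adjusted by Benjamini and Hochberg, with a threshold of 0.05. CPM carry TMM factors, and fitted folds a prior count of 0.125. SE belong to log2 values and SD to the 4 libraries of a group. DESeq2 1.42.0 and limma 3.58.1 served as alternatives, and data.table (version 1.17.8) read the tables. Library pairs within a group differed by 2.87 to 30.7 in chi-square per gene, so none was counted as a repeat sequencing of another library. This value cannot tell repeat preparations of 1 mouse or pool from separate mice.

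The comparison and the 31 gene lists, 9 of them cell markers, were chosen with earlier results of these data known. Named genes were 20 landmarks and the 10 most negative and 10 most positive called interactions (mean of at least 5 CPM over 16 libraries). They also included up to 3 called members with the smallest p in each list with at least 3 called. The 5 most opposed, alike or sham-borne genes of each kind, at the same mean level, completed them. Myh6, Myh7, Nppa, Ccn2, Ankrd1, Dbp, Cycs, Ndufs1, Ppm1k, Aldh1l2, Rnpc3 and Tspan4 have fractional counts in at least 15 libraries. Landmarks and list members apart, a named gene needed a standard symbol, one that is unique in the table and is no Gm number, Rik name, accession, pseudogene or mitochondrial gene. Genes outside this rule that are named in the text were chosen after their values were seen. Promoters came from RefSeq on GRCm38.p6, and 10468 tested genes matched by symbol. Besides the motifs shown, the AP-1 site TGANTCA and the TATA box TATAAA were searched. The AP-1 site lay in 26.1% of interferon and 4.0% of matrix promoters, against 5.2% of all. The TATA box lay in 22.2% of hypertrophy and 0.0% of clock promoters, against 7.7% of all. Every motif was searched in each set, and the other shares are not given. Same-numbered libraries did not deviate together, so the replicate number entered no fit but 1 alternative. Alternatives covered scaling, filters, tools, the additive scale and leaving out each library; leaving out 2 libraries and the additive list counts were added after seeing the data. Results for some genes that the rule names are not reported here.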

Additional observations from a re-analysis of the deposited data

Results flagged for a closer look

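TAC effects differed between PRODH and vector for 3764 genes by the interaction test, and 136 genes were called in both arms with opposite signs. Among opposed genes with at least 5 CPM and a standard symbol, the interaction of those with the largest smaller effect was 1.39 for Pirt, 1.18 for Bche, 1.15 for Auts2, 1.13 for Zfp518a and 0.87 for Rnpc3 on the log2 scale. It was -2.41 for Per2, -1.71 for Phlda1, -1.41 for Tspan4, -1.29 for Ier3 and -0.88 for Slc2a1.

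Single libraries stood far from the other 3 of their group in 27 of 520 groups of 4 (5.19%; 130 named genes in 4 groups), where chance gives about 1 in 20. Of these, 20 were high and 7 low. They are given as normalised CPM.

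In PRODH TAC, library 4 was high for Gpx3 (93.2) and Lpin1 (65.6), and library 2 was low for Sdha (538.7). In PRODH sham, library 4 was high for Nppa (138.6), Serpine2 (9.33) and Efnb3 (43.9) and low for Glul (270.9). Library 3 of that group was high for Itgbl1 (2.64) and low for Bgn (44.9). Library 2 was high for Mki67 (2.74) and low for Ltbp3 (10.2), and library 1 was high for Esrrg (28.0).

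In vector TAC, library 2 was high for Gpr22 (10.97), Pdhb (435.8), Cycs (552.7), Nr2f2 (8.21), Hopx (59.5) and Per3 (7.23) and low for Pfkfb3 (4.99) and Lpin1 (35.3). Library 3 of that group was high for Slc1a5 (15.2), Serpine2 (28.2) and Efnb3 (21.5). In vector sham, library 1 was high for Itgb6 (15.4), Phkg1 (16.2) and Lrrc15 (12.5), and library 2 was low for Bche (15.7).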

How the results depend on the processing

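The interaction was called for 3764 genes, and for 3207 to 4110 when 1 library was left out (1302 to 1999 higher, 1630 to 2366 lower). An adjusted p under 0.01 left 2221 genes (864 higher, 1357 lower), and a size of at least 1 log2 unit left 1096 (304 higher, 792 lower). Without vector TAC libraries 3 and 4, which held the least mt-Nd4 (20080 and 22060 CPM), 2801 were called (1142 higher, 1659 lower), 2598 of them shared; this setting was chosen after seeing the data. Positive calls made up 40.9% of all calls, 48.2% with upper quartile scaling, 48.6% to 50.7% without 1 sham library, 39.8% to 45.3% without 1 TAC library and 38.2% on the additive scale, where 3036 of the 3764 genes were called and none had the opposite sign.

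Opposed genes numbered 136, 223 with scaling by library size alone and 87 to 207 when 1 library was left out. Alike genes numbered 39, and 25 to 42 when 1 library was left out, 25 being without vector sham library 3. Of 117 called named genes, 113 were called in every edgeR, DESeq2 and limma-voom setting run, and none changed sign in these or on the additive scale. On the additive scale Aldh4a1, Ppargc1a, Acaa2, Dbt and Per3 lost their call, with adjusted p of 0.072, 0.0521, 0.285, 0.0735 and 0.0526. Counts of 3 or fewer calls in a list moved by at most 2 when 1 library was left out. The cause was not tested.

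With the replicate number as a block 3872 genes were called, 3677 of them shared. Same-numbered libraries correlated at -0.129 to 0.168 in their deviations, and 5 of 16 libraries correlated best with their own number, so the number does not pair them. Depth limits low genes: Pycr1 lay under 1 CPM on average in every group, with an SE of 0.47.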
